A study of Mus musculus with 4 samples.

Results

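The expression of 9 genes known for heat production in fat was examined in the hearts of exercised and tumor-bearing mice. The 9 genes, Ucp1, Ucp2, Cidea, Dio2, Prdm16, Elovl3, Ppargc1a, Pparg and Adrb3, were taken by their symbols from the 23238 gene symbols in the heart data, and each had a row. They were chosen by the values of Ucp1 across these same 4 libraries, so the values that follow are a description and not a test of the choice. The data are mRNA-seq of the heart from CDF1 mice, an F1 hybrid strain, with 1 library in each of 4 groups. The groups were E-&T- (no exercise, no tumor), E+&T- (exercise, no tumor), E-&T+ (no exercise, tumor) and E+&T+ (exercise and tumor). All mice were male. The labels give an age of postnatal day 28, which matches the age at purchase. By the methods, tissues were taken when the exercise and tumor experiment ended, so the mice were older by then. There were 10 mice named for each group, and it was not stated whether a heart library came from 1 mouse or from a pool. Exercise was high-intensity treadmill running, and the tumor was CT26, a mouse colorectal cancer cell line injected into the tail vein, whereas the T- mice had no injection.

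Brown adipocytes burn fat to make heat. Noradrenaline from sympathetic nerves acts on the β3-adrenergic receptor (Adrb3), cyclic AMP rises, lipolysis frees fatty acids, and the fatty acids activate UCP1, a carrier of the inner mitochondrial membrane that lets protons return without making ATP. Prdm16, Pparg and Ppargc1a are transcriptional regulators of this program, and Dio2 makes active thyroid hormone inside the cell. Brown fat is also found beside the large vessels of the chest, and a heart that is removed can carry fat with it.

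With 1 library per group, no difference between groups could be tested, and no p-value is given. Values are given as reads recovered from the deposited values, or as the deposited log2(normalized read count + 1), and where 4 values follow a gene they stand in the order E-&T-, E+&T-, E-&T+, E+&T+. The error given is the 95% Clopper-Pearson interval, on the log2 scale, for reads of a pair of libraries, and it covers counting error only. Differentially expressed genes (DEGs) differed by 2-fold or more and reached 4 normalized reads in either library of the pair. The 4 comparisons are named by what differs: the exercise effect without tumor (E+&T- vs. E-&T-), the exercise effect with tumor, which sets E+&T+ against E-&T+, the tumor effect without exercise, which sets E-&T+ against E-&T-, and the tumor effect with exercise, which sets E+&T+ against E+&T-. Where a library had 0 reads, the fold is a lower bound against a floor of 3 reads in that library, at the fitted library sizes unless stated.

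The 4 libraries held 6595417 to 11546027 reads. All 10 cardiomyocyte markers were detected in each library, and their summed normalized reads ran from 438100 to 499500. The E+&T+ library stood apart. Globin genes took 37.3% of its reads and between 7.86% and 8.76% in the other 3, the summed erythroid markers were 7.27 times those of E-&T-, and the summed lung epithelium markers 2.94 times. The summed liver markers were 27.39, 24.64, 183.9 and 301.3 normalized reads in E-&T-, E+&T-, E-&T+ and E+&T+. In bulk tissue, more cells of a type and more RNA per cell cannot be told apart.

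The promoters of Ucp1 and Dio2 are shown because the results turn on Ucp1, because Dio2 was called in 3 of the 4 comparisons, and because both genes are known targets of cyclic AMP. They are RefSeq sequences on GRCm38.p6, from 250 bases before to 50 after the annotated start, and 6 of the 9 members had such a sequence. Capitals mark the letters AGGTCA (a nuclear receptor element), TGACG and TGACGTCA (the core and the full cyclic AMP response element), searched on both strands. The Ucp1 window lies at chr8:83290098-83290397 on the + strand and the Dio2 window at chr12:90738989-90739288 on the - strand. The RefSeq start of Dio2 lies upstream of the GENCODE gene model that gives its position in the text.
Ucp1: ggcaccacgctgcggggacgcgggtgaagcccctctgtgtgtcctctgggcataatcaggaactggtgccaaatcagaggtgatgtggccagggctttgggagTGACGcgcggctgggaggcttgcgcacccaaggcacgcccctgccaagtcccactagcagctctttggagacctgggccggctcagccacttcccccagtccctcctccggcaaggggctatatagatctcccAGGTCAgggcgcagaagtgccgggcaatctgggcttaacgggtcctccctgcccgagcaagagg
Dio2: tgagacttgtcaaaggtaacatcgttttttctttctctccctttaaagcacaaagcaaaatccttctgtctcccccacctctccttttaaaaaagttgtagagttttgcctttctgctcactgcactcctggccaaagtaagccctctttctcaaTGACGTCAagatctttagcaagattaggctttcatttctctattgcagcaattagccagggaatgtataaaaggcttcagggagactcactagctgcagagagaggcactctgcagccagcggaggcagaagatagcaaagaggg
The Ucp1 window held TGACG at position -147 and AGGTCA at -14 from the start. The Dio2 window held TGACGTCA at -95, and the TGACG matches at -95 and, on the other strand, at -92 lie inside it. Of 32851 promoters of this length, 16.3% held AGGTCA, 20.8% TGACG and 1.79% TGACGTCA. These are letter matches, and no binding was measured.

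Ucp1 (chr8:83290352-83298452, + strand) had 814 reads in E+&T+ and 0 in each of the other 3 libraries. The deposited log2 values were 0.31, 0, 0 and 9.80, and the 0.31 belongs to a library with 0 reads, raised by the quantile adjustment. Its level was 70.5 CPM (reads scaled to the library total) in E+&T+, and 0 reads allowed levels of up to 0.455, 0.354 and 0.315 CPM in E-&T-, E+&T- and E-&T+. With levels scaled by the fitted library sizes, Ucp1 was at least 336-fold higher in E+&T+ than in E-&T+, at least 328-fold higher than in E+&T- and at least 259-fold higher than in E-&T-. Scaled by the library totals, as the CPM are, the same bounds were 224-fold, 199-fold and 155-fold. All these bounds rest on the floor of 3 reads. At the fitted library sizes they were 8.394, 8.358 and 8.016 on the log2 scale, and the 95% intervals began lower, at 8.093, 8.056 and 7.715. No other annotated gene lies within 2 kb of the 3′ end of Ucp1.

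Among 8831 genes with at least 50 normalized reads in E+&T+, Ucp1 had the largest gap between E+&T+ and the highest of the other 3 libraries, 9.49 on the log2 scale. Of these genes, 2406 were highest in E+&T+, 141 of them by 2-fold or more and 51 by 4-fold or more. Among the 67 genes with over 3 reads in E+&T+ and 0 in the other 3, Ucp1 came first, ahead of Tspo2 with 63 reads. The genes most like Ucp1 by this gap were Tspo2, Apol11b, Slc4a1, Cxcl2, Cldn13, Hemgn, Hbq1b, Elovl3, Trim10 and Cd24a. Slc4a1 (the anion exchanger of red cells) had 30, 55, 47 and 1273 reads in E-&T-, E+&T-, E-&T+ and E+&T+, and Hemgn (a nuclear protein of blood progenitors) had 2, 4, 10 and 165. Several of these genes are known from the red cell lineage, and Elovl3 was the other thermogenic fat gene among them. The minimum of 50 was set in E+&T+ alone. Ucp1 and Elovl3, the latter with 50.7 normalized reads there, reached it in no other library, so both had to be highest in E+&T+.

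**Figure D1:**
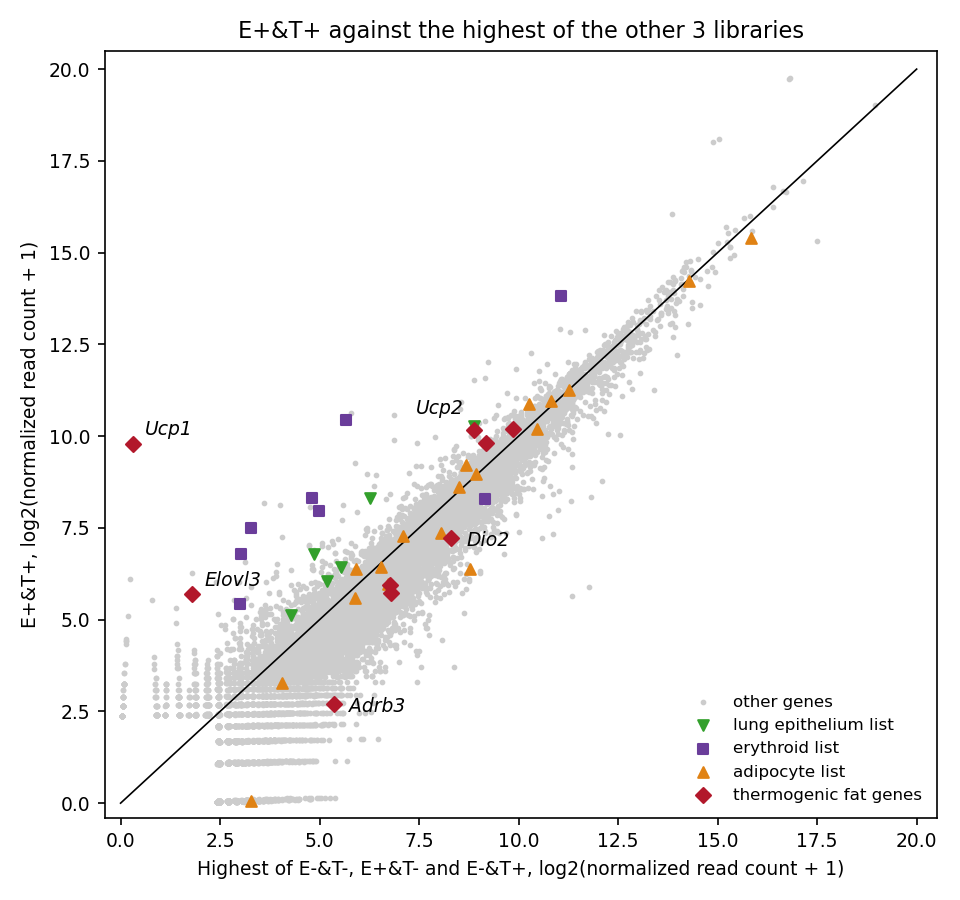
E+&T+ level (vertical axis) against the highest of the other 3 libraries (horizontal axis), both as log2(normalized read count + 1), with 1 point per gene and the line of equality. Ucp1 sits at 9.80 against 0.31, and Elovl3 at 5.69 against 1.80, apart from the cloud along with markers of the erythroid list.

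Elovl3 (chr19:46131897-46135694, + strand), an enzyme that elongates fatty acids in brown fat, had 2, 1, 0 and 47 reads in E-&T-, E+&T-, E-&T+ and E+&T+. Thus it was also high in E+&T+ only, and against the floor of 3 reads it was at least 19.4-fold higher there than in E-&T+. That bound is 4.28 on the log2 scale, and the 95% interval began lower, at 3.925. Against E+&T-, the ratio of reads was 5.83 on the log2 scale, with an interval of 3.28 to 11.16. Pitx3, which overlaps Elovl3 on the opposite strand at or near its 3′ end, had 2, 0, 0 and 5 reads.

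Ucp2 (chr7:100493337-100502020, + strand), a carrier related to Ucp1 that is found in many tissues, had 285, 299, 537 and 1045 reads. It was highest in E+&T+, by 2.08 on the log2 scale over E+&T- (1.89 to 2.27) and by 1.27 over E-&T+ (1.12 to 1.42). Ucp3 (a muscle carrier of the same family) had 44, 27, 2 and 25 reads and so was lowest in E-&T+. Slc25a14 and Slc25a27, further relatives, had 26, 48, 32 and 20 and 3, 6, 7 and 7 reads. In this family, Ucp1 and Ucp2 were 2-fold or more higher in E+&T+ than in each of the other libraries. Dnajb13, on the opposite strand at the 3′ end of Ucp2, had 0, 0, 0 and 2 reads.

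**Figure D2:**
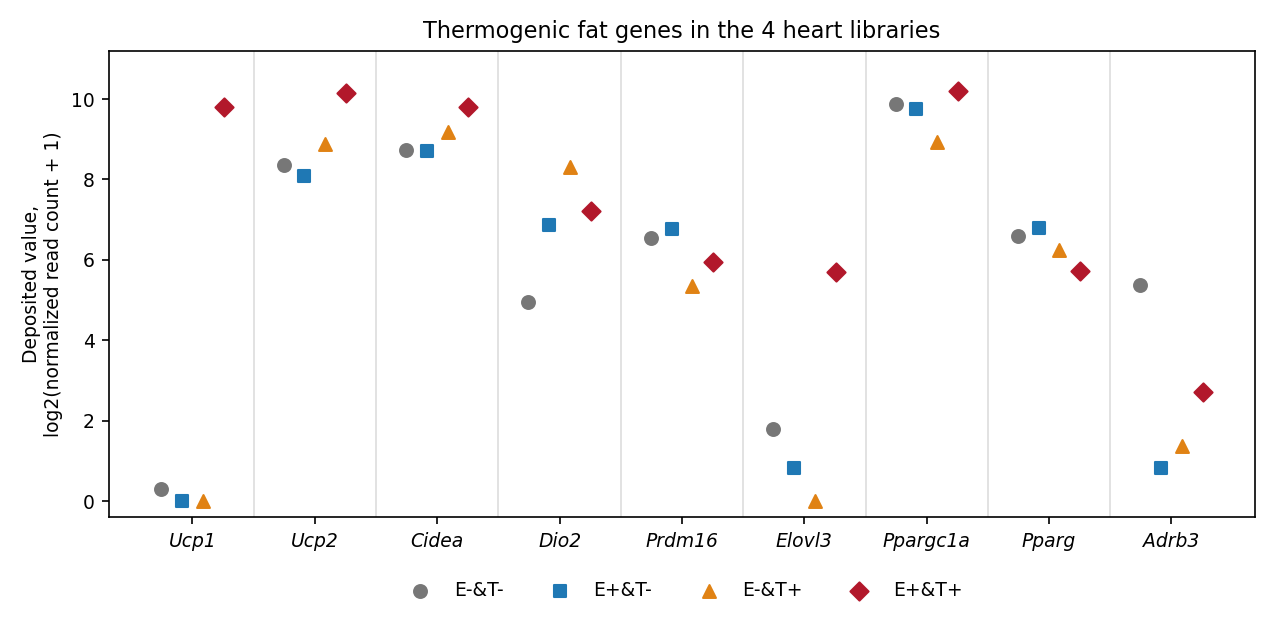
Deposited log2(normalized read count + 1) of the 9 thermogenic fat genes, 1 point per library. Ucp1 (9.80) and Elovl3 (5.69) are high in E+&T+ only, Dio2 is lowest in E-&T- (4.96) and Adrb3 highest there (5.37).

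Cidea, a lipid droplet protein of brown adipocytes that the heart also expresses, had 373, 461, 657 and 816 reads, and its log2 values differed by 1.10 between E+&T+ and E+&T- (0.93 to 1.27) but by 0.62 between E+&T+ and E-&T+ (0.47 to 0.77). Thus reads of Cidea were plentiful in all 4 hearts, including the 3 in which Ucp1 had none. Its relative Cidec, a protein of large lipid droplets, had 230, 96, 14 and 150 reads, and Cideb, which serves liver lipid export, had 36, 65, 40 and 58. Cidea and Cidec therefore did not have the same order of libraries.

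Dio2 (chr12:90724552-90738438, - strand) had 26, 128, 359 and 136 reads and was lowest in E-&T-. The E+&T- level was 1.91 above it (log2, 1.34 to 2.63), and the E-&T+ level was 3.36 above it (2.83 to 4.04). Between the tumor groups the order turned, and Dio2 was lower by 1.09 in E+&T+ than in E-&T+ (interval -1.39 to -0.80). Dio1 and Dio3, the enzymes for other deiodinations, had at most 9 reads in any library.

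Adrb3 (chr8:27225776-27250616, - strand) had 36, 1, 2 and 5 reads, so it was highest in E-&T- and near the floor elsewhere. The ratio of reads was -5.51 on the log2 scale for E+&T- against E-&T- (-10.85 to -2.94) and -4.55 for E-&T+ against E-&T- (-7.65 to -2.59). The differences of E+&T+ from E-&T+ and E+&T- rested on 5 reads against 2 and 1, and the intervals, -0.98 to 5.03 and -0.56 to 8.16, held 0. Adrb1, the main receptor of the heart, had 133, 206, 57 and 66 reads, and was lower in both tumor libraries than in their T- counterparts. Of 8 markers of sympathetic neurons, the source of the receptors' ligand, 3 had 3 reads or fewer in every library, among them Th, which makes the precursor of noradrenaline. Dbh (which makes noradrenaline) had 83, 109, 6 and 10 reads and Npy (a peptide released with it) 11, 76, 102 and 57. The most abundant ones, Phox2a and Stmn2 (named after their values were seen), had 485, 716, 369 and 392 and 128, 154, 119 and 237 reads, so the list had no common order. Got1l1, on the same strand within 2 kb of the 3′ end of Adrb3, had 0 reads in all 4 libraries.

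Ppargc1a (chr5:51454250-51567726, - strand), a coactivator of mitochondrial genes, had 813, 948, 554 and 1077 reads, and the difference between E+&T+ and E-&T+ was 1.27 on the log2 scale (1.12 to 1.42). It was lowest in E-&T+, and E+&T+ stood 0.46 above E+&T-. Its relatives Ppargc1b (385, 420, 208 and 291 reads) and Pprc1 (24, 49, 23 and 27) did not reach 2-fold in that comparison. Prdm16 (chr4:154316125-154636873, - strand), a determinant of brown fat identity, had 80, 120, 45 and 55 reads, lower in E-&T+ than in E-&T- by 1.19 on the log2 scale (interval -1.77 to -0.66). Pparg (chr6:115360951-115490399, + strand), the regulator that all adipocytes need, had 84, 122, 85 and 47 reads and was lowest in E+&T+, 1.09 below E+&T- (-1.62 to -0.61). So the library with the Ucp1 reads was not the one with the most Pparg or Prdm16. Ppara, a relative of Pparg that governs fatty acid use in the heart, had 553, 866, 258 and 409 reads, and Ppard 62, 99, 80 and 86.

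**Figure D3:**
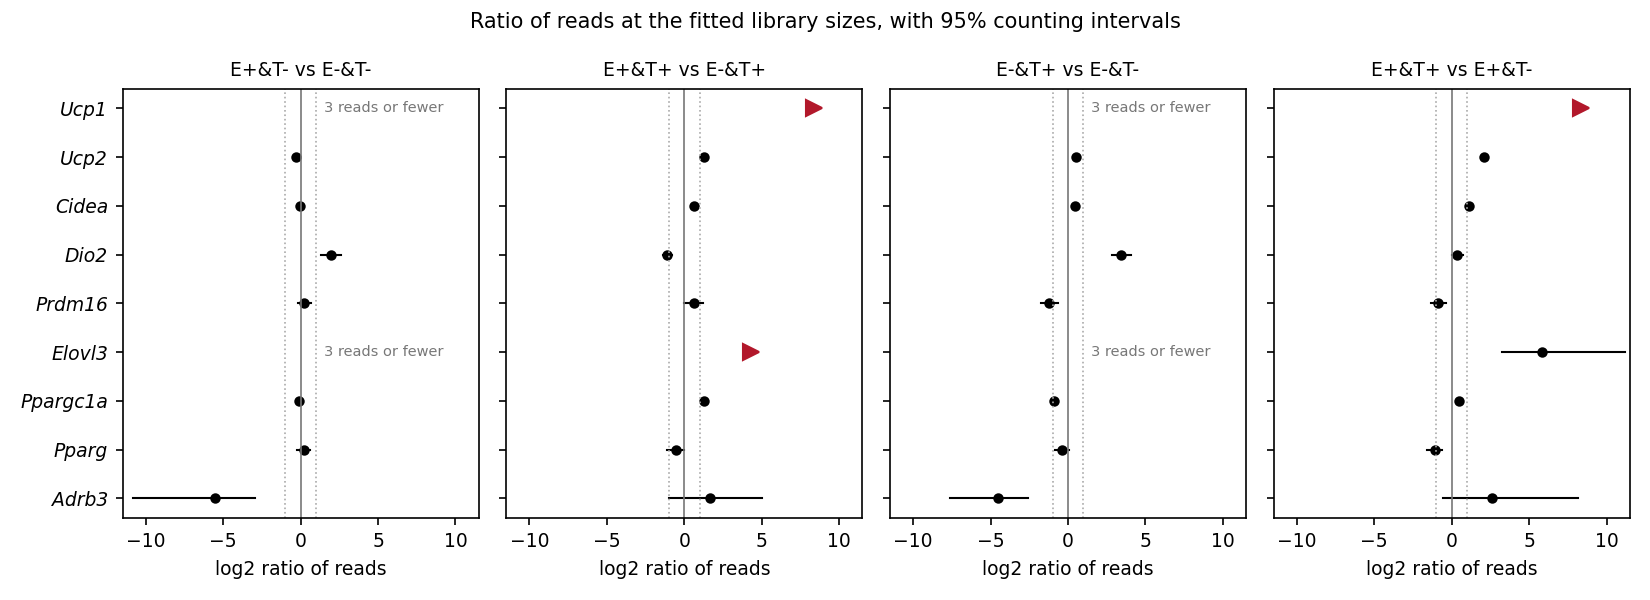
Ratio of reads, log2, for the 9 genes in 4 comparisons, with points and lines as values and 95% counting intervals, triangles as lower bounds for 0 reads, and dotted lines at 2-fold. Ucp1 and Elovl3 have lower bounds of 8.39 and 4.28 in the exercise effect with tumor.

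In the exercise effect without tumor, 7 of the 9 genes passed the count minimum, with Dio2 upregulated and Adrb3 downregulated. Of 13930 genes, 5.88% were upregulated and 6.4% downregulated. In the exercise effect with tumor, all 9 passed, and 5 (Ucp1, Elovl3, Ucp2, Ppargc1a and Adrb3) were upregulated and Dio2 was downregulated. The share of all 14357 genes was 9.39% upregulated and 10.0% downregulated. When the values were scaled by library size alone, which lowered the median of all genes in this comparison to -0.60, 2 genes were upregulated and 2 downregulated, and Ucp2 (0.68), Ppargc1a (0.68) and Adrb3 (0.76) were under 2-fold. In the tumor effect without exercise, 7 passed, with Dio2 upregulated and Prdm16 and Adrb3 downregulated, where 14.6% and 13.1% of 14311 genes were. In the tumor effect with exercise, all 9 passed, with 5 (Ucp1, Elovl3, Ucp2, Cidea and Adrb3) upregulated and Pparg downregulated, where 12.0% and 11.1% of 14282 genes were. Scaling by library size lowered the median of all genes there to -0.74 and left 3 up and 2 down. The 2 comparisons with E+&T+ share that library, and the genes were chosen for Ucp1 in it, so their counts are a description. Ucp1, Elovl3 and Adrb3 passed the count minimum there through E+&T+ alone and so had to differ, and with a count minimum of 16, which removed Adrb3, each of these 2 comparisons had 4 genes up and 1 down. Markers of other cells moved beside them. Of 8 erythroid markers with a row, 8 were upregulated in the exercise effect with tumor and 7 in the tumor effect with exercise, and of 6 lung epithelium markers 3 and 6 were upregulated. Scgb1a1, a secreted protein of airway cells, had 407, 108, 412 and 1123 reads, and Sftpc, a surfactant protein, 58, 38, 87 and 292. The part of these cells in the values of the 9 genes was not tested.

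A list of 18 genes expressed in adipocytes was set beside the 9 genes. Not all of the list is confined to adipocytes, so its values do not measure adipocyte content alone. The exercise effect without tumor had 10 of 18 downregulated and none upregulated, where 6.4% of all genes were downregulated. The tumor effect without exercise had 11 of 18 downregulated and none upregulated, against 13.1% of all genes downregulated. With tumor, exercise had 9 of 17 upregulated and none downregulated, or 8 and 1 when scaled by library size, against 9.39% of all genes upregulated. The tumor effect with exercise had 8 of 17 upregulated and none downregulated, against 12.0% of all genes upregulated. The median log2 differences, in that order, were -1.49, -2.03 (-1.80 with genes at 0 reads held at their bound), 1.46 and 0.91, where the medians of all genes lay between -0.012 and 0.002. Some called genes passed the count minimum through 1 library alone and so could only go 1 way. Through E-&T-, these were Lep and Acvr1c in the exercise effect without tumor. In the tumor effect without exercise, they were Plin1, Lep, Adig, Acvr1c and Car3. Through E+&T+, they were Plin1, Adig, Acvr1c and Car3 in the exercise effect with tumor, and Acvr1c in the tumor effect with exercise. These counts are therefore a description. Adipoq (adiponectin, secreted by adipocytes) had 317, 78, 76 and 356 reads, Plin1 (the coat of the fat droplet) 52, 16, 0 and 76, and Car3 (a carbonic anhydrase rich in fat) 386, 93, 4 and 75. Adipoq and Plin1 were thus higher in E-&T- and E+&T+ than in E+&T- and E-&T+, whereas Car3 was high in E-&T- alone. The summed normalized reads of the list had another order, 61880, 52190, 77540 and 71920, and were highest in E-&T+. Lpl, a lipase that heart muscle also makes, had 28745, 34368, 66457 and 39537 reads and so took most of that sum in E-&T+. In a further comparison, chosen after its values were seen, 2 of 18 list genes were downregulated and none upregulated when E+&T+ was set against E-&T-, with a median of -0.02, where 12.4% of all genes were upregulated and 12.2% downregulated.

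E-&T- and E+&T+ held 599 and 582 reads of Adipoq, Plin1 and Cidec together (3 genes chosen after their values were seen), and Ucp1 was at 0 and 814. These are unscaled reads, from libraries of 6595417 and 11546027 reads. Of the 18 genes of the adipocyte list, 9 were higher and 9 lower in E+&T+ than in E-&T-. Per read of the 3 chosen genes, E+&T+ had 1.4 reads of Ucp1, and 0 reads in E-&T- allowed up to 0.00501. For Cidea, the same ratio was 0.623, 2.43, 7.30 and 1.4, and so highest in E-&T+, the library with the fewest reads of these 3 genes. Whether attached fat was a part of the Ucp1 reads was not tested.

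**Figure D4:**
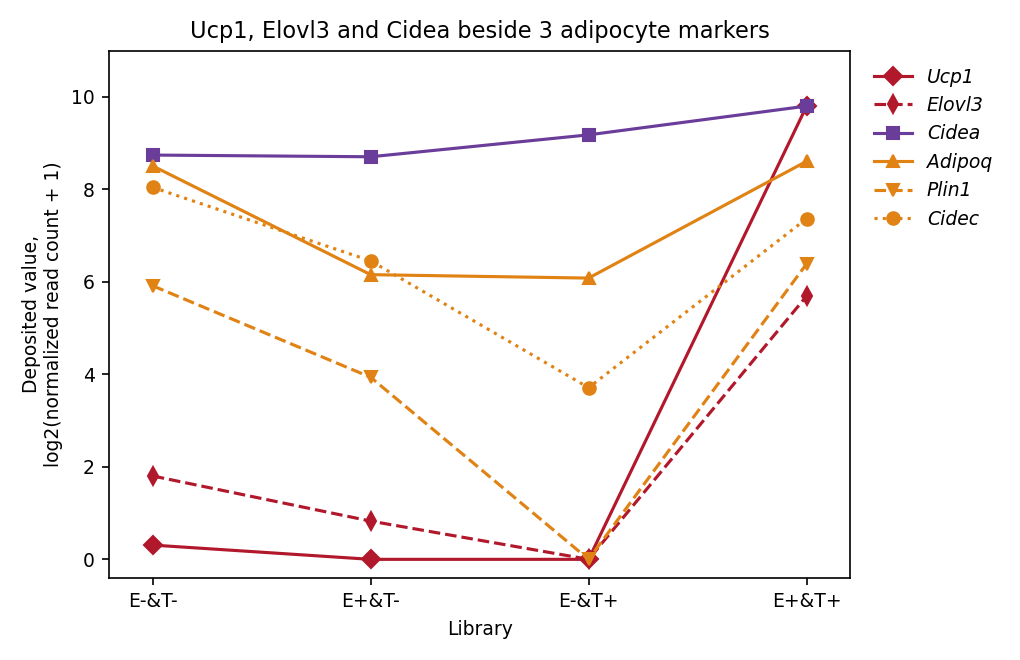
Deposited log2(normalized read count + 1) of Ucp1, Elovl3 and Cidea (thermogenic fat genes) and of Adipoq, Plin1 and Cidec (adipocyte markers) in the 4 libraries, with lines joining the points of a gene. Adipoq, Plin1 and Cidec differ between E-&T- and E+&T+ by 0.10, 0.47 and -0.68, while Ucp1 goes from 0.31 to 9.80.

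Of 18 genes that mark brown adipocytes, 6 were upregulated and 2 downregulated of the 12 that passed in the exercise effect with tumor, where 9.39% of all genes were upregulated and 10.0% downregulated. In the tumor effect with exercise, 7 of 12 were upregulated and none downregulated, against 12.0% and 11.1% of all genes. There, Otop1, Aspg, Slc27a2, Nrg4, Kng2 and Ffar4 passed the count minimum through E+&T+ alone and so could only be higher in it. The same held for Otop1, Slc27a2 and Ffar4 in the exercise effect with tumor, so these counts are a description. Scaled by library size, these counts became 3 up and 2 down, and 5 up and 3 down. With a count minimum of 16, they were 3 up and 2 down, and 2 up and 0 down. In the exercise effect without tumor, 3 of 8 were downregulated and none upregulated, against 6.4% and 5.88% of all genes. Of these 3, Nrg4 and Ffar4 passed through E-&T- alone. In the tumor effect without exercise, 3 of 10 were upregulated and 2 downregulated, against 14.6% and 13.1% of all genes. There, Cyp2b10, Aspg and Kng2 passed through E-&T+ alone, and Ffar4 through E-&T- alone. The summed normalized reads of the list were 568.3, 447.2, 431.4 and 522.5 in E-&T-, E+&T-, E-&T+ and E+&T+, and so not highest in the library with Ucp1. Ebf2, P2rx5, Slc36a2 and Acot11, which had reads in every library, took most of that sum in each. P2rx5, named after its values were seen, had 131, 157, 162 and 104 reads. The sum therefore says little of the other genes of the list. The median log2 difference of the list was 0.65 in the exercise effect with tumor and 1.76 in the tumor effect with exercise, or 0.49 and 0.97 with genes at 0 reads held at their bound. The early brown fat regulators Zic1 and Lhx8 had 3, 0, 0 and 0 reads and 0 in all 4 libraries, and Bmp8b and Fgf21 (secreted factors of brown fat) had 0 in all 4. Ebf2, a brown fat transcription factor, had 160, 176, 149 and 129 reads, and Slc36a2 (an amino acid carrier) 119, 71, 53 and 46. Cyp2b10 (a drug-metabolizing enzyme) had 2, 5, 16 and 71 reads. Otop1 and Slc27a2, which were named after their values were seen, had 4 and 8 reads in E+&T+ and 0 in the others. In all, 8 of the 18 genes were highest in E+&T+, most of them with few reads, such as Nrg4 (10, 3, 8 and 15 reads) and Acot11 (52, 58, 36 and 61), which were also named after their values were seen. For all genes, this share was counted only at 50 or more normalized reads in E+&T+, where it was 2406 of 8831. Genes with fewer reads have no such share beside them.

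Of the 14 genes that brown fat shares with heart muscle, mostly of fatty acid oxidation, none was called in the tumor effect with exercise. Their median was 0.08, and 23.0% of all genes were called. In the exercise effect with tumor, 3 were upregulated and none downregulated (median 0.62), against 9.39% and 10.0% of all genes. In the tumor effect without exercise, 12 were lower and 2 of them downregulated (median -0.52), against 13.1% of all genes downregulated. When E+&T+ was set against E-&T-, none was called (median 0.10), against 24.6% of all genes. Pdk4 (a kinase that spares glucose) had 141, 86, 19 and 76 reads, and Plin5 (a droplet protein of oxidative tissue) 599, 702, 523 and 943. In 25 transcriptional regulators, none was called in the exercise effect with tumor, against 19.4% of all genes. The tumor effect with exercise had 1 up and 3 down, where 23.0% of all genes were called. The tumor effect without exercise had 2 up and 3 down, where 27.6% were called. The exercise effect without tumor had 2 up and 0 down, where 12.3% were called. Of the 15 adrenergic and lipolysis genes, 14 passed the count minimum in the exercise effect with tumor. Of these, 2 were upregulated and none downregulated, against 9.39% and 10.0% of all genes. Plin1, 1 of the 2, passed through E+&T+ alone and could only be higher there. In the tumor effect without exercise, 5 of 14 were downregulated and none upregulated, against 13.1% and 14.6% of all genes. Plin1 passed there through E-&T- alone. Mgll, which cuts monoglycerides, had 3143, 3405, 1241 and 2694 reads, and G0s2, an inhibitor of fat lipase, 666, 1129, 163 and 151. Of 11 genes linked to heat made without UCP1, 1 was upregulated and 1 downregulated in the exercise effect with tumor, where 9.39% and 10.0% of all genes were. Sln, which lets the calcium pump of muscle run without moving calcium, was highest in E+&T+ at 4479 reads, against 434, 1402 and 680.

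Of the 6 genes that passed among 8 markers of beige adipocytes (fat cells that take on brown features), 1 was upregulated and 3 downregulated in the exercise effect with tumor, with a median of -0.995, where 9.39% and 10.0% of all genes were. Shox2 had 43, 99, 43 and 10 reads. The summed normalized reads of the list were 152.3, 173.0, 147.5 and 75.84, and so lowest in the library with the Ucp1 reads.

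**Figure D5:**
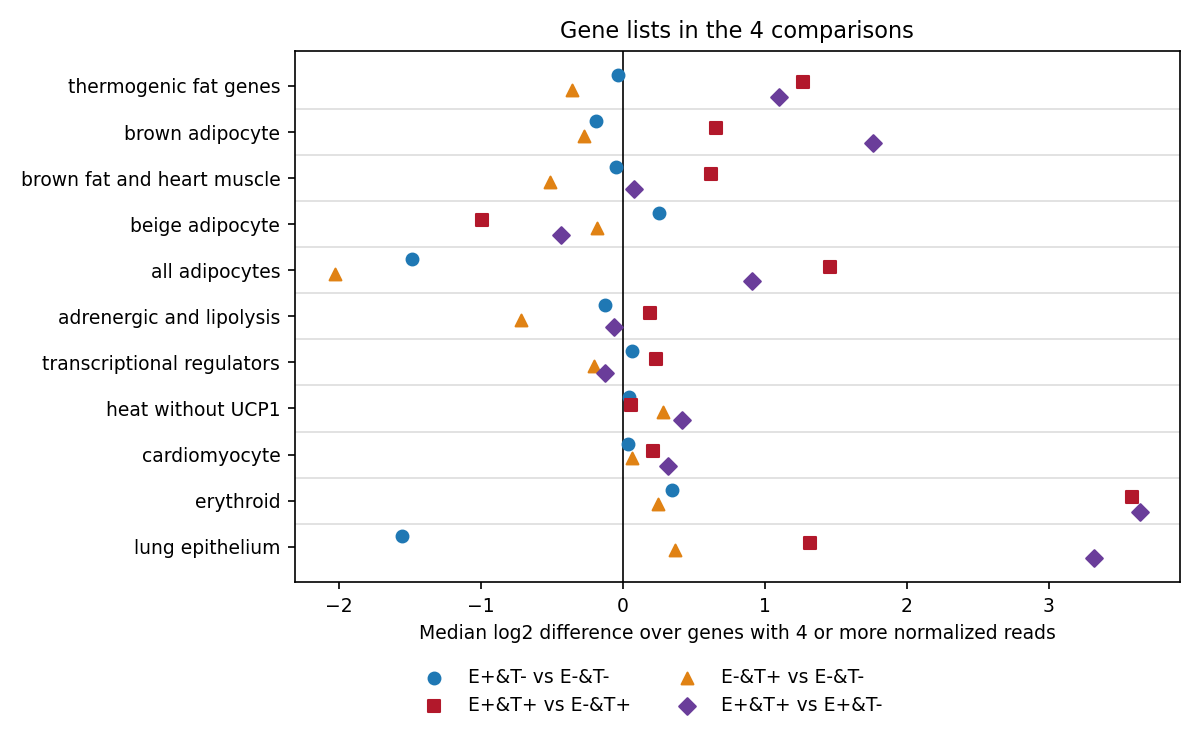
Median log2 difference of the genes of each list that passed the count minimum, 1 point per comparison. Genes at 0 reads enter with their fitted values. The thermogenic fat genes are at 1.27 in the exercise effect with tumor, the adipocyte list at 1.46 and the erythroid list at 3.58, with beige genes at -0.995.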

How the data were processed

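Hearts of 4 groups of CDF1 mice (E-&T-, E+&T-, E-&T+, E+&T+; 1 library each) were measured by QuantSeq 3′ mRNA-seq. Per the methods of the authors, alignment used Bowtie2, counting used Bedtools and quantile normalization used edgeR. They deposited log2(normalized read count + 1) for 23282 rows, and the deposited log2 values were used. Versions are not given in the sources used here. The genome build in the labels is mm10.

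Whole reads were recovered in R 4.3.3 from the deposited log2 values by inverting the quantile adjustment with fitted relative library sizes and a common dispersion (0.149). Deposited values were given back to within 0.000547, and 100% of 25460 values of 5 to 99 reads came within 0.1 of a whole read. Library totals were 6595417, 8477104, 9532867 and 11546027 reads. Of 44 rows with a repeated symbol, the row with the highest mean was kept. Depth limits were set at a floor of 3 reads and 95% Clopper-Pearson intervals, which cover counting error only since PCR copies are not independent molecules.

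A gene was called at 2-fold or more on the deposited log2 difference, with 4 or more normalized reads in either library. No test was possible with 1 library per group. Genes named outside the members were the family relatives, up to 5 genes of widest span per list, genes at 3 reads or fewer in every library, and the 10 genes most like Ucp1. The members and lists were chosen with earlier results of these data known. The recovery and the calls were tested on simulated data. Positions are from GENCODE vM21 and promoters from RefSeq, both on GRCm38. Alternatives were library size scaling, TMM and median-of-ratios sizes, leaving out genes over 1% of a library, pseudocount 4, count minimum 16 or none, reads subsampled to the smallest total, and the other choice among repeated symbols. Python 3.11.15, scipy 1.17.1 and pandas 2.3.3 were used.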

Additional observations from a re-analysis of the deposited data

Results flagged for a closer look

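Dio2 and Adrb3 differed in direction between the tumor states or the exercise states, and the differences were not tested, since each group has 1 library. For Dio2, E+&T- stood above E-&T- by 1.91 on the log2 scale, while E+&T+ stood below E-&T+ with a difference of -1.09. For Adrb3, the effect of exercise was -4.54 without tumor and 1.34 with tumor, on 1 against 36 reads and 5 against 2 reads. The effect of tumor on Adrb3 was -3.99 without exercise and 1.89 with exercise, the latter on 5 against 1 reads. The intervals for Adrb3 in E+&T+ against E-&T+ and against E+&T- held 0.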

How the results depend on the processing

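No paired analysis was possible because each group had 1 library, and no replicate could be left out. The number of thermogenic fat genes called in either direction stayed within 1.5 times its main value under each of the 9 alternatives, but the counts by direction did not: scaled by library size, 5 up and 1 down became 2 and 2 in the exercise effect with tumor, and 3 and 2 in the tumor effect with exercise. Of 324 log2 differences under the alternatives, 308 moved by less than the counting interval, 16 moved further and none of the called ones changed sign. The 308 include differences that had no room to move. A count minimum of 16 or none cannot change a difference, and the other choice among repeated symbols moved none beyond the interval. The 36 differences under each of these settings are therefore no sign of stability. Scaling by library size, which lowered the median of all genes to -0.60 in E+&T+ vs. E-&T+ and -0.74 in E+&T+ vs. E+&T-, accounted for 11 of the 16. Under it Cidea (0.38) fell under 2-fold in E+&T+ vs. E+&T-, and Ucp2 (0.68), Ppargc1a (0.68) and Adrb3 (0.76) in E+&T+ vs. E-&T+. Cidea was also under 2-fold (0.92) without genes over 1% of a library, which gave 4 up and 2 down, and Adrb3 in E+&T+ vs. E-&T+ with pseudocount 4 (0.77) and after subsampling (0.41). Under library size scaling the uncalled values of Dio2 (-0.36) and Ppargc1a (-0.26) in E+&T+ vs. E+&T- changed sign. With pseudocount 4, the difference of Ucp1 was 7.80. The brown adipocyte list was less stable: with a count minimum of 16, its 8 called genes in the exercise effect with tumor became 5, its 7 in the tumor effect with exercise became 2, its 3 in the exercise effect without tumor became 1 and its 5 in the tumor effect without exercise became 2. With no minimum the last pair became 6 and 8, and library size scaling, or subsampling to the total of the smallest library (globin reads included), left 5 in the exercise effect with tumor. Values of under 4 reads, such as Adrb3 in 2 libraries, are limited by depth.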
